A study of Gallus gallus with 6 samples.

Results

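The transcripts of the mitochondrial genome were examined in the jejunum of slow-growing Korat chickens at 10 weeks of age. All genes that the deposited table places on chromosome MT were taken, which gave 37 of the 24356 genes listed. They comprised 13 protein-coding genes, 2 rRNA genes, 21 genes of the size of a tRNA, and 1 gene of 135 bases that matched none of these classes. Poly(A)-selected RNA was sequenced from 6 birds, each of which gave 1 library. L1, L2 and L3 were birds with a low feed conversion ratio (FCR, feed eaten per unit of weight gained), and H1, H2 and H3 were birds with a high FCR. All birds received the same 3-phase diet and free water in individual cages, and no treatment separated the groups, which were the extremes of a ranking by FCR.

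The mitochondrial genome of vertebrates encodes core subunits of the respiratory chain and of ATP synthase, together with the rRNAs and tRNAs needed to translate them inside the organelle. Both of its strands are transcribed as long precursors, from which the tRNAs are cut out and so release most mRNAs and rRNAs. Most of the mature mRNAs, though not necessarily all, are polyadenylated. Nearly all other mitochondrial proteins, including most respiratory subunits, are encoded in the nucleus. In the small intestine, absorptive enterocytes are rich in mitochondria, which supply ATP for the transport of nutrients.

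The low-FCR libraries held 10436038 to 11347158 counts in total and the high-FCR libraries 11052723 to 11370043. The methods describe male birds. The W chromosome is carried by females in birds, and its genes summed to 16140 counts in L1, with 48 to 80 counts in any other bird. The title of H3 carries the words Low-FCR, while its code and the study's tables place it in the high-FCR group, the grouping used here. All 16 matched markers of absorptive enterocytes and all 10 of smooth muscle had counts in every library, so the tissue held the intestinal wall as well as epithelium. The log2 FC of each protein-coding gene is therefore given also without L1 and without L3, and several other values without single birds.

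Mitochondrial genes took 14.2%, 13.8% and 8.99% of all counts in L1, L2 and L3, next to 10.0%, 11.9% and 13.1% in H1, H2 and H3. The mean share was 12.3% ± 2.88 for the low-FCR group and 11.7% ± 1.58 for the high-FCR group (SD, n = 3 each), a difference well within the spread between birds. The low-FCR group held both the highest shares, in L1 and L2, and the lowest, in L3. The exact 95% binomial interval of a share was narrow beside these differences, from 8.98% to 9.01% in L3 and from 14.1% to 14.2% in L1. These intervals cover counting error only, as reads were not counted by molecular identifiers. The log2 ratio of the mean shares was 0.07, and it was -0.04 without L1, 0.26 without L3 and 0.17 without H3. The share of the birds thus did not follow their FCR group.

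**Figure D1:**
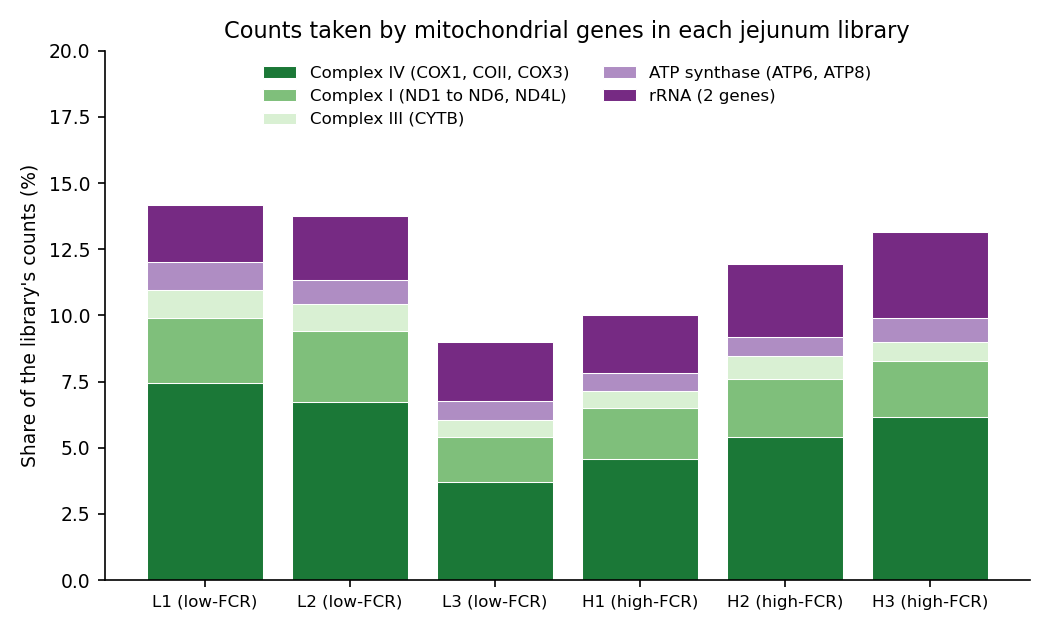
Share of each library's counts (%) taken by the mitochondrial genes, stacked by the complex that the gene product belongs to, for 3 low-FCR birds (L1, L2, L3) and 3 high-FCR birds (H1, H2, H3). The bars end between 8.99% in L3 and 14.2% in L1, and the rRNA segment differs less between low-FCR birds than the protein-coding segments do.

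The protein-coding genes alone took 12.0%, 11.3% and 6.77% of the counts in L1, L2 and L3, next to 7.83%, 9.17% and 9.89% in H1, H2 and H3. The rRNA genes took 2.13%, 2.43% and 2.23% in L1, L2 and L3, next to 2.18%, 2.75% and 3.25% in H1, H2 and H3. The ratio of protein-coding to rRNA counts was 5.66, 4.66 and 3.04 in L1, L2 and L3, next to 3.59, 3.33 and 3.04 in H1, H2 and H3. The ratio was therefore high in L1 and L2 and nearly identical in L3 and H3. The libraries had been selected for poly(A) tails, and the part of that step in the rRNA counts was not tested.

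COX1, which encodes the catalytic subunit of cytochrome c oxidase (complex IV), had more counts than any other gene in each of the 6 libraries. Mitochondrial genes filled 9, 9 and 7 of the 10 places with the most counts in L1, L2 and L3, next to 8, 7 and 8 in H1, H2 and H3. Levels of different genes were compared in FPKM, which the authors computed per exonic length and total count. COX1 averaged 20547 ± 5789 FPKM over the 6 birds (SD), followed by COX3 with 17455 ± 3689 and COII with 16341 ± 3916, the other subunits that make up the mitochondrially encoded core of complex IV. COX1 lay above COX3 in 5 of 6 birds, and COX3 above COII in 5 of 6, so these neighbours did not keep their order in every bird. Whether their levels differed was not tested. ATP6, the proton channel subunit of ATP synthase, followed with 11916 ± 2231 FPKM and was below COII in all 6 birds.

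The longer rRNA gene averaged 9788 ± 2198 FPKM and the shorter 9309 ± 1372 FPKM, with the longer one higher in 4 of 6 birds. CYTB, the cytochrome b of complex III, had 7234 ± 1638 FPKM. It was above ND1, a membrane-arm subunit of complex I, in all 6 birds. ND1 averaged 5292 ± 1011 FPKM, ND2 4273 ± 735, ND4 3885 ± 695 and ND5 3395 ± 676, all of them complex I subunits of the membrane arm that takes part in proton pumping. Only the step from ND4 to ND5 kept its order in all 6 birds among these.

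The other members lay lower per length. ND3 had 930 ± 222 FPKM, ATP8 864 ± 192, ND6 499 ± 149 and ND4L 407 ± 83.6 FPKM. ND5 lay above ND3 in all 6 birds, while ND3 and ATP8, like ND6 and ND4L, changed places in 3 of 6 birds. ND3, ATP8 and ND4L are the shortest protein-coding genes of the genome, with 351, 165 and 297 bases. ND6, with 522 bases, is its only protein-coding gene on the minus strand, whereas the other 12 lie on the plus strand. The 3 shortest genes and the one on the minus strand were thus the lowest per length. Among the higher genes the level did not follow length, as COII (684 bases) and COX3 (784 bases) lay above ND5 (1818 bases), the longest gene.

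**Figure D2:**
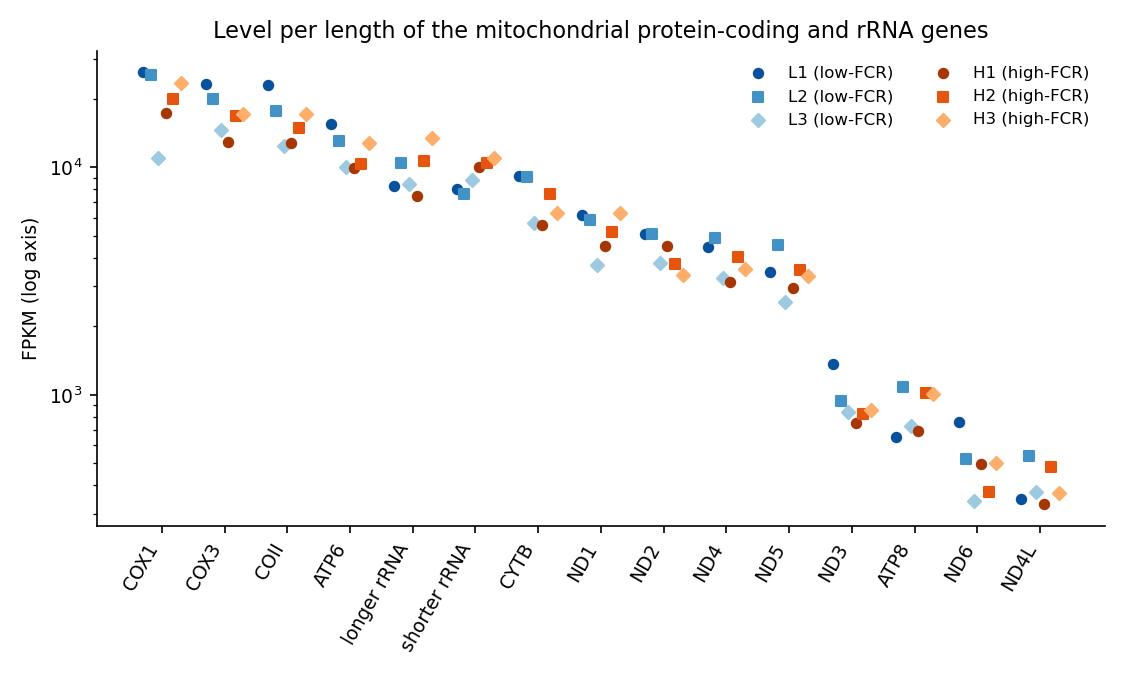
FPKM (log axis) of the 13 protein-coding and 2 rRNA genes of the mitochondrial genome in each of 6 birds, ordered by the mean over birds; each point is 1 library. COX1, COX3 and COII lead, and ND3, ATP8, ND6 and ND4L lie apart at the lower end.

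The map of the genome bears on how reads could be counted. In GRCg6a coordinates, COX1 lies at MT:6645-8192, COII at MT:8331-9014, COX3 at MT:9923-10706 and CYTB at MT:14893-16035. ATP8 (MT:9085-9249) and ATP6 (MT:9240-9923) share 10 bases, and ND4L (MT:11196-11492) and ND4 (MT:11486-12863) share 7 bases. ATP6 also shares 1 base with COX3. The overlap and strand settings of the counting are not given in the sources used here, so the levels of ATP8 and ND4L in particular are uncertain, as reads that touch both neighbours could have been left out or assigned to either. ND6 lies at MT:16184-16705 on the minus strand, and reads from its opposite strand cannot be told apart from its own without a stated strand setting.

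Of the 37 genes, 17 had a count in any library, and these 17 were also those that passed the filter of a mean FPKM of at least 0.5. The other 20 genes, all of tRNA size, had 0 counts in all 6 birds. A count of 3 in a library, taken as an approximate upper bound for an observed count of 0, equals 0.264 to 0.288 CPM when scaled to the total count. It bounds the reads that could be counted for these genes and not their transcript levels. Reads that also touch a neighbour could have been left out, as the overlap setting is not given. These genes are 65 to 76 bases long and each lies within 3 bases of another gene. The only tRNA-sized gene with counts was ENSGALG00000041922 (MT:1228-1296), directly before the shorter rRNA gene, with 22, 14 and 13 counts in L1, L2 and L3, next to 23, 10 and 30 in H1, H2 and H3.

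To ask whether FCR went with mitochondrial transcript levels, all 14282 genes past the filter were tested with edgeR's quasi-likelihood test, with Benjamini-Hochberg adjustment over all of them. Levels below are CPM, the counts after TMM normalization scaled to a common library size, and the log2 FC is low-FCR over high-FCR. None of the 17 tested mitochondrial genes passed the test, and their adjusted p was 0.997 throughout. None of the 14282 genes passed either (0%). At an unadjusted p under 0.05 the count was 0 of 17 mitochondrial genes, beside 3.24% of all genes, and DESeq2 called 0 of 17, beside 0.056% of all genes. The means of 13 members were higher and those of 4 lower in the low-FCR group, where 51.8% of all genes were higher. Since the labels name 1 library per bird, the p-values draw on the spread between birds. The fit also draws on the spread of other genes, so a p-value does not measure that of its own gene alone.

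Among the complex IV genes, COX1 had 46562, 39943 and 16175 CPM in L1, L2 and L3, against 25794, 28998 and 36424 CPM in H1, H2 and H3. L1 and L2 were the highest birds and L3 the lowest. The log2 FC was 0.17 (SE 0.48, 95% interval -0.91 to 1.26), and it was -0.12 without L1 and 0.51 without L3. COII, which carries the copper site that receives electrons from cytochrome c, had 18143, 12163 and 8124 CPM in L1, L2 and L3, against 8466, 9589 and 11804 CPM in H1, H2 and H3. The groups again overlapped, with a log2 FC of 0.36 (SE 0.40), which was 0.02 without L1 and 0.61 without L3. COX3 had 20908, 15863 and 10923 CPM in L1, L2 and L3, against 9784, 12415 and 13490 CPM in H1, H2 and H3, with L3 between H1 and H2. Its log2 FC was 0.42 (SE 0.38), and it was 0.17 without L1 and 0.63 without L3.

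The 7 complex I genes had log2 FCs from 0.10 to 0.50. ND3 came nearest to the threshold of all members, with an unadjusted p of 0.132. It had 552, 335 and 280 CPM in L1, L2 and L3, against 255, 271 and 303 CPM in H1, H2 and H3. L1 lay apart from all other birds and L3 lay below H3, and the log2 FC was 0.50 (SE 0.30, 95% interval -0.18 to 1.17). It was 0.15 without L1 and 0.68 without L3. ND1 had 6927, 5793 and 3468 CPM in L1, L2 and L3, against 4249, 4763 and 6118 CPM in H1, H2 and H3. Its log2 FC of 0.10 (SE 0.36) was the lowest of complex I, with L3 lowest of the 6 birds, and it was -0.13 without L1 and 0.33 without L3.

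ND2 had 6099, 5337 and 3764 CPM in L1, L2 and L3, against 4534, 3681 and 3509 CPM in H1, H2 and H3. It was the single protein-coding gene in which H3 was the lowest bird. ND4 had 7097, 6778 and 4278 CPM in L1, L2 and L3, against 4140, 5229 and 4926 CPM in H1, H2 and H3. ND5 had 7238, 8362 and 4418 CPM in L1, L2 and L3, against 5154, 6049 and 6080 CPM in H1, H2 and H3. In both, L1 and L2 were above every high-FCR bird, while L3 was below all but H1 in ND4 and below all in ND5, with log2 FCs of 0.34 (SE 0.33) for ND4 and 0.21 (SE 0.35) for ND5, and 0.37 (SE 0.32) for ND2. Without L1 they were 0.21 for ND4, 0.14 for ND5 and 0.22 for ND2, and without L3 0.54, 0.44 and 0.55 in the same order.

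ND4L had 119, 162 and 106 CPM in L1, L2 and L3, against 94.7, 135 and 110 CPM in H1, H2 and H3. Its log2 FC was 0.18 (SE 0.25), or 0.24 without L1, 0.31 without L3 and -0.036 without L2, and here L2 and not L1 was the highest bird. ND6 had 458, 277 and 170 CPM in L1, L2 and L3, against 249, 183 and 262 CPM in H1, H2 and H3. L1 was again highest and L3 lowest, with a log2 FC of 0.38 (SE 0.36), which was -0.06 without L1 and 0.67 without L3. ND6 lies on the minus strand, but its counts may include reads from the opposite strand, as the strand setting is not given.

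CYTB had 12078, 10496 and 6200 CPM in L1, L2 and L3, against 6140, 8183 and 7187 CPM in H1, H2 and H3. L1 and L2 were above all high-FCR birds and L3 was beside H1, with a log2 FC of 0.42 (SE 0.37, 95% interval -0.42 to 1.26), which was 0.22 without L1 and 0.65 without L3. ATP6 had 12197, 8993 and 6548 CPM in L1, L2 and L3, against 6509, 6649 and 8746 CPM in H1, H2 and H3. Its log2 FC was 0.34 (SE 0.36), and it was 0.083 without L1 and 0.54 without L3. ATP8, an accessory membrane subunit of ATP synthase that overlaps ATP6, had 124, 181 and 115 CPM in L1, L2 and L3, against 110, 158 and 166 CPM in H1, H2 and H3. It was the only protein-coding gene with a lower mean in the low-FCR group, by a log2 FC of -0.05 (SE 0.27) that was 0.03 without L1 and 0.07 without L3, and L1 was among its lower birds.

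Over the 13 protein-coding genes, 12 log2 FCs were above 0 and the median was 0.34, beside a median of 0.02 over all genes tested. The 95% intervals all held 0, with -0.91 for COX1 as the lowest bound and 1.28 for COX3 as the highest. Their width differed by gene, with -0.39 to 0.75 for ND4L and -0.91 to 1.26 for COX1. None of the 13 differences could be told from 0 with these birds. The median was 0.14 without L1, with 10 of 13 above 0, and 0.54 without L3, with 13 of 13 above 0. It was 0.37 without H3, and 0.20 with limma on log2(FPKM + 0.5), a scale on which the median of all genes was -0.09. On CPM, L1 was the highest of the 6 birds in 10 of the 13 genes and L2 in the other 3. L3 was the lowest in 5 and H1 in 7. These ranks depend on the scale, as the TMM factor of L1 was 0.87. In FPKM, which takes no TMM factor, ND1 was highest in H3 (6262, against 6172 in L1). ND4 was highest in L2 on that scale (4864, against 4474 in L1). Leaving out L2 also moved single genes, to 0.02 for COX1 and ND1 and to -0.0075 for ND5. The genes are parts of a few common precursors, so they are not independent evidence of a direction.

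**Figure D3:**
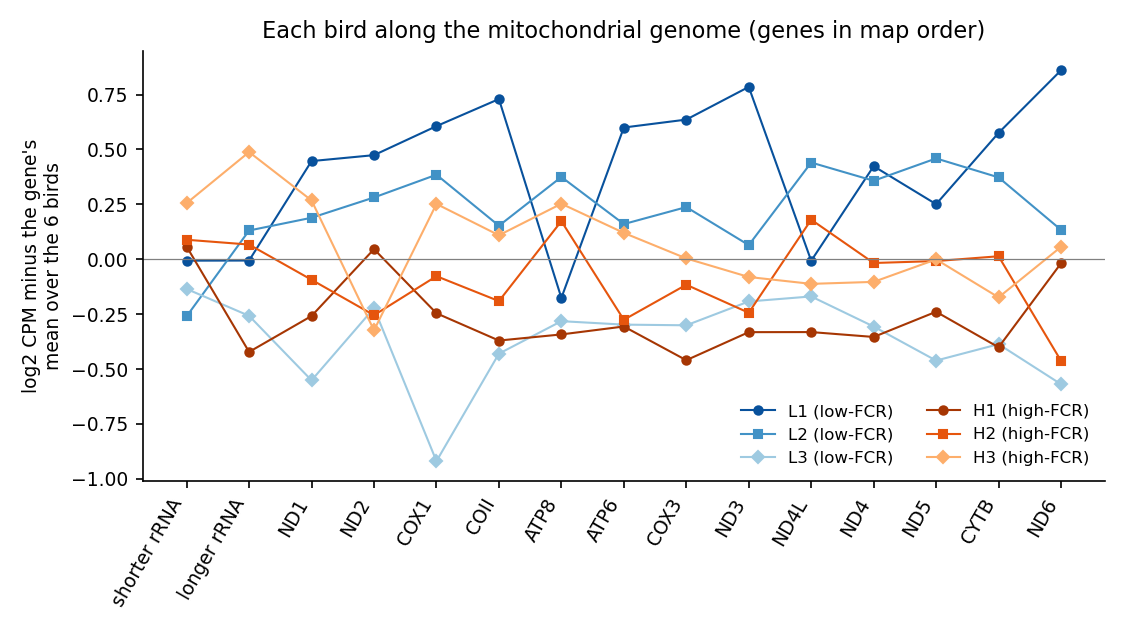
For each protein-coding and rRNA gene in map order, log2 CPM of each of 6 birds minus the gene's mean over the birds; lines join the genes of 1 bird. L1 and L2 run above 0 and L3 below 0 over most protein-coding genes, with L3 at its lowest in COX1 (16175 CPM), while in the rRNA genes H3 is highest.

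The spread of the low-FCR birds was wider than that of the high-FCR birds in all 13 protein-coding genes. The median SD of log2 CPM was 0.48 among low-FCR and 0.24 among high-FCR birds. Over all genes tested the medians were 0.45 and 0.29, on log2(CPM + 0.5), and 69.2% of genes had the wider spread in the low-FCR group. The wider spread was thus shared with much of the transcriptome. For COX1 the SD of log2 CPM was 0.82 for low-FCR and 0.25 for high-FCR birds.

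The rRNA genes carry no symbol in the files. They were recognized by their sizes of 976 and 1621 bases, within 1 base of the mitochondrial rRNA genes in the RefSeq annotation of GRCg7b, and form the small and the large subunit of the mitochondrial ribosome. The shorter one, ENSGALG00000036956 (MT:1297-2272), had 8975, 7530 and 8208 CPM in L1, L2 and L3, against 9382, 9587 and 10762 CPM in H1, H2 and H3. It was the only 1 of the 17 tested members whose groups did not overlap, with all low-FCR birds below, beside 3.4% of all genes in that direction and 6.36% in either. The log2 FC was -0.27 (SE 0.31, 95% interval -0.98 to 0.44), with an unadjusted p of 0.416 in edgeR's quasi-likelihood test. The SD of its log2 CPM was 0.13 for low-FCR and 0.11 for high-FCR birds, and the SE draws on other genes as well.

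The longer rRNA gene, ENSGALG00000043598 (MT:2346-3966), had 15512, 17054 and 13027 CPM in L1, L2 and L3, against 11626, 16314 and 21847 CPM in H1, H2 and H3. The groups overlapped and H3 lay apart at the top. Its log2 FC was -0.13 (SE 0.38) and was 0.12 without H3. The ratio of the longer to the shorter rRNA in FPKM was 1.04, 1.36 and 0.956 in L1, L2 and L3, next to 0.746, 1.02 and 1.22 in H1, H2 and H3. The rRNAs, which are separated on the map by a tRNA-sized gene of 73 bases, therefore did not keep a fixed ratio between birds.

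The gene of 135 bases, ENSGALG00000033462 (MT:8124-8258, minus strand), shares 69 bases with the end of COX1 on the opposite strand and reaches 66 bases past it. The RefSeq annotation used for the sizes holds 22 mitochondrial tRNA genes, beside the 21 found here by size. Whether this gene holds the remaining tRNA was not tested. The gene of 135 bases had 156, 47 and 23 counts in L1, L2 and L3, next to 53, 54 and 64 in H1, H2 and H3. L1 was highest and L3 lowest, as for COX1, and reads of COX1 and of this gene cannot be told apart in the shared bases without a stated strand setting. The log2 FC was 0.58 (SE 0.68), and it was -0.65 without L1. For ENSGALG00000041922 the log2 FC was -0.23 (SE 0.62), and it was 0.13 without H3.

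The mix of mRNAs was compared by relating each gene to the sum of the 13 protein-coding genes of the same library. COX1 made up 33.6%, 34.8% and 25.1% of that sum in L1, L2 and L3, next to 34.2%, 33.6% and 36.7% in H1, H2 and H3. L3 stood apart with the smallest part. COX3 made up 15.1%, 13.8% and 16.9% in L1, L2 and L3, next to 12.96%, 14.4% and 13.6% in H1, H2 and H3. The part of CYTB was 8.72%, 9.15% and 9.60% in L1, L2 and L3, next to 8.13%, 9.48% and 7.25% in H1, H2 and H3, with the groups overlapping. The part of ND2 was 4.40%, 4.65% and 5.83% in L1, L2 and L3, next to 6.01%, 4.26% and 3.54% in H1, H2 and H3, with H1 the highest and H3 the lowest bird. ND1 made up 5.002%, 5.05% and 5.37% in L1, L2 and L3, next to 5.63%, 5.52% and 6.17% in H1, H2 and H3. It was the only protein-coding gene whose parts did not overlap between the groups, with all low-FCR birds below all high-FCR birds. The share of all genes without overlap was not computed on this scale, and on CPM it was 6.36%. The missing overlap is therefore not read as a result about ND1.

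On this scale the log2 FCs of the protein-coding genes lay between -0.22 for ATP8 and 0.23 for ND3, with 8 above and 5 below 0. The shorter rRNA had a log2 FC of -0.42 (SE 0.38), with an unadjusted p of 0.280 in edgeR's quasi-likelihood test. No member passed the test, and none had an unadjusted p under 0.05. All tested genes, most of them nuclear, were scaled to the mitochondrial sum in this fit, and the SEs draw on them. For ND1 the log2 FC was -0.17 (SE 0.36). Because the SEs draw on other genes, that no member passed does not show that the mix was equal. Without L3 the log2 FC of the shorter rRNA was -0.81 with an unadjusted p of 0.0102, and its adjusted p in edgeR's fit was 0.391. The bird that was left out has the lowest ratio of mRNA to rRNA counts in its group.

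**Figure D4:**
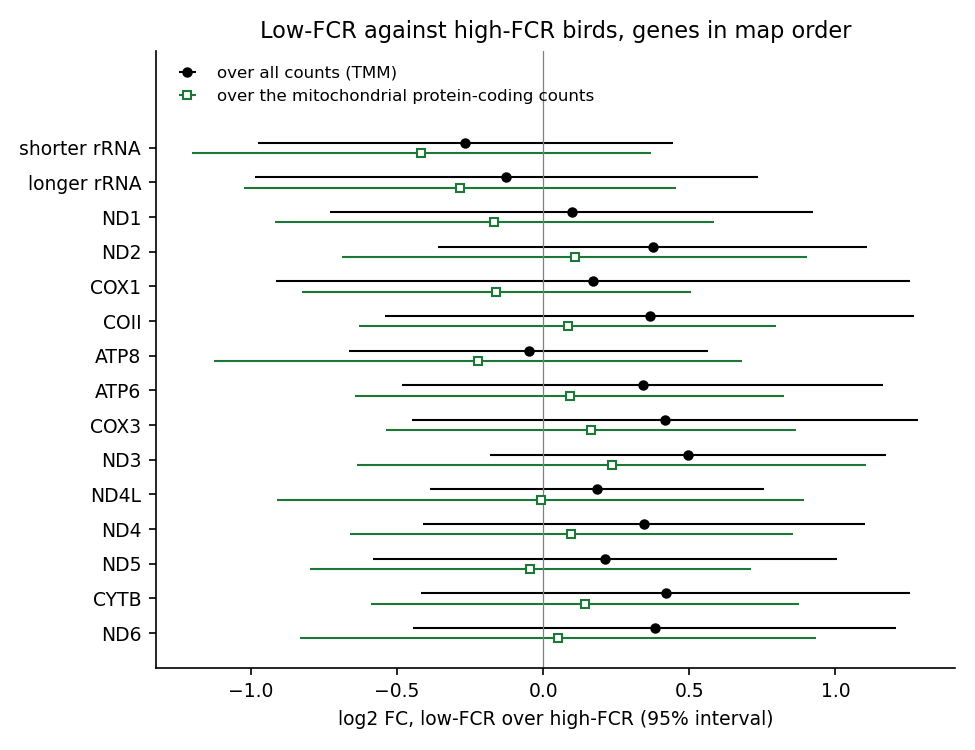
Log2 FC of low-FCR over high-FCR birds with its 95% interval from edgeR, for the protein-coding and rRNA genes in map order, relative to all counts after TMM (filled circles) or to the sum of the mitochondrial protein-coding counts (open squares). All intervals cross 0, with the shorter rRNA at -0.27 and ND3 at 0.50 relative to all counts.

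The nuclear genes that build or serve the mitochondrion were read from 11 lists with 224 tested genes. None of the 224 passed the test, with edgeR or with DESeq2, and none had an unadjusted p under 0.05, the smallest being 0.0522. The groups did not overlap in 14 of them, or 6.25%, near the 6.36% of all genes. By list these were uneven, with 5 of 22 translation factors and tRNA synthetases and 0 of the 65 genes of the respiratory complexes and ATP synthase. In those 5 all low-FCR birds were below all high-FCR birds, as in 3.4% of all genes. This list was picked from the 11 by its values, and no list was tested as a set. The median log2 FC was 0.35 over the 32 tested nuclear subunits of complex I, of which 27 were above 0. It was 0.34 over 8 nuclear subunits of complex III, 0.36 over 9 of complex IV and 0.28 over 12 of ATP synthase. Over the 4 subunits of complex II, which has no mitochondrially encoded subunit, it was 0.03. Without L1 these medians were -0.09 for complex I, -0.03 for both complexes III and IV, -0.12 for ATP synthase and -0.12 for complex II. Without L3 they were 0.61 for complex I, 0.64 for complex III, 0.67 for complex IV, 0.60 for ATP synthase and 0.32 for complex II.

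By bird, the 65 tested nuclear genes of the respiratory complexes and ATP synthase summed to 11799, 8838 and 4573 CPM in L1, L2 and L3, against 7273, 6698 and 7265 CPM in H1, H2 and H3. The 13 mitochondrial genes summed to 138501, 114683 and 64569 CPM in L1, L2 and L3, against 75478, 86301 and 99126 CPM in H1, H2 and H3. Both sums were highest in L1, next in L2 and lowest in L3. Their ratio was 11.7, 12.98 and 14.1 in L1, L2 and L3, next to 10.4, 12.9 and 13.6 in H1, H2 and H3. L1 was the highest bird in 54 of the 65 nuclear genes and L3 the lowest in 55. The median log2 FC of the 65 genes was 0.31, and it was -0.09 without L1 and 0.62 without L3. With L1 left out, 16 of 65 were above 0, against 55 of 65 with it.

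**Figure D5:**
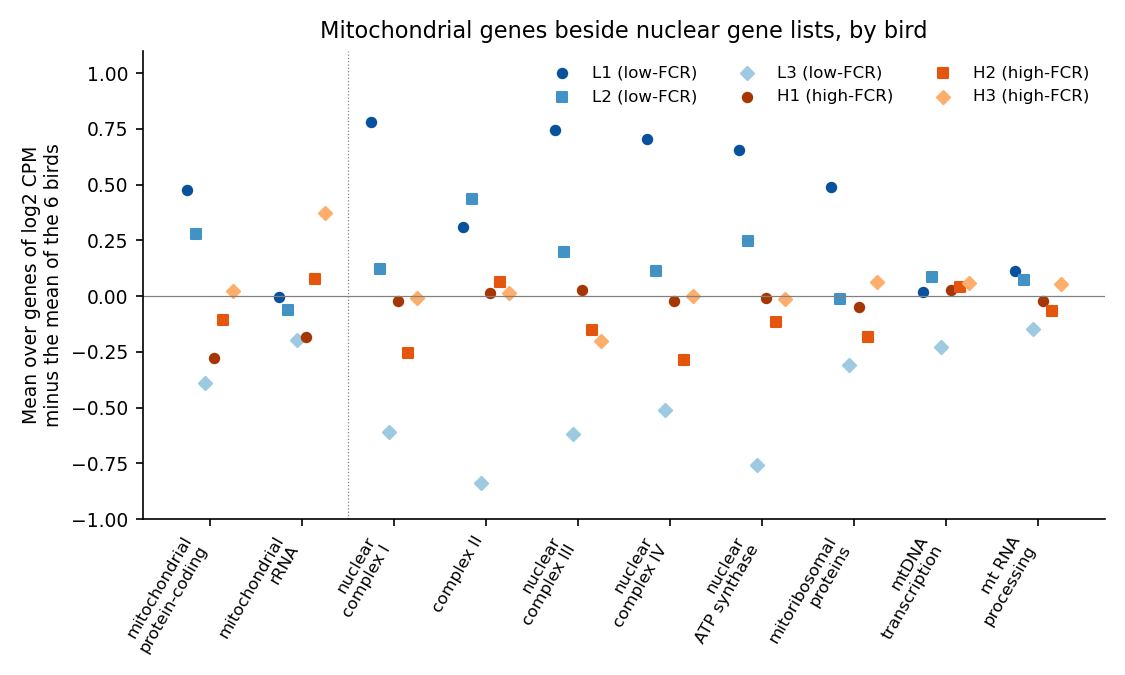
Mean over the genes of a list of log2 CPM minus the gene's mean over the 6 birds, for the 13 mitochondrial protein-coding and 2 rRNA genes and for 8 of the 11 nuclear gene lists (translation factors and tRNA synthetases, regulators of biogenesis and housekeeping genes are not drawn); each point is 1 bird. L3 is lowest in every column drawn, but not among the regulators of biogenesis, L1 is highest in the subunits of complexes I, III and IV and of ATP synthase, and H3 is highest in the rRNA column.

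Within these lists, NDUFAB1, the mitochondrial acyl carrier protein that is also a complex I subunit, had 100, 38.0 and 22.7 CPM in L1, L2 and L3, against 28.2, 20.6 and 32.1 CPM in H1, H2 and H3. NDUFB2, an accessory subunit of complex I, had 223, 79.8 and 50.1 CPM in L1, L2 and L3, against 52.8, 55.5 and 77.6 CPM in H1, H2 and H3. In both, L1 alone lay far above the others. UQCR10 and UQCRB of complex III, COX7B and COX7A2 of complex IV, and ATP5PD and USMG5 of ATP synthase were also highest in L1, with log2 FCs from 0.31 to 0.52. SDHB and SDHD of complex II had log2 FCs of 0.11 (SE 0.38) and 0.07 (SE 0.36), and both were lowest in L3.

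POLRMT, the RNA polymerase that transcribes the mitochondrial genome, had 57.1, 62.3 and 74.9 CPM in L1, L2 and L3, against 49.1, 53.5 and 50.7 CPM in H1, H2 and H3. All low-FCR birds were above all high-FCR birds, with a log2 FC of 0.34 (SE 0.21) and an unadjusted p of 0.140 in edgeR's quasi-likelihood test. L3, the bird with the lowest mitochondrial share, had the highest POLRMT level. TFAM, which packs mitochondrial DNA and starts its transcription, had 92.6, 93.7 and 74.8 CPM in L1, L2 and L3, against 72.0, 77.0 and 91.4 CPM in H1, H2 and H3. LRPPRC, known in mammals to stabilize mitochondrial mRNAs, had 140, 185 and 107 CPM in L1, L2 and L3, against 109, 185 and 129 CPM in H1, H2 and H3. For TFAM and LRPPRC the groups overlapped, with log2 FCs of 0.12 (SE 0.21) and 0.03 (SE 0.29).

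Of the 14 tested genes for transcription and replication of mitochondrial DNA, 7 had a higher and 7 a lower mean in the low-FCR birds, with a median log2 FC of -0.03. All low-FCR birds were above all high-FCR birds in 1 of the 14, POLRMT, and below them in 1 other. PRIMPOL, a primase and polymerase that restarts stalled replication, had the smallest p of this list, with 7.20, 18.2 and 10.97 CPM in L1, L2 and L3, against 18.0, 24.2 and 17.5 CPM in H1, H2 and H3. Of 25 genes for processing and stability of mitochondrial RNA, 16 were above 0, with a median of 0.03. CDK5RAP1, which modifies mitochondrial tRNAs, had 157, 105 and 152 CPM in L1, L2 and L3, against 88.2, 78.5 and 113 CPM in H1, H2 and H3. With a log2 FC of 0.57 (SE 0.25) it was the gene nearest to the threshold in all the lists. PUS1, a pseudouridine synthase acting on tRNAs, had 31.0, 35.7 and 44.9 CPM in L1, L2 and L3, against 27.6, 27.7 and 29.3 CPM in H1, H2 and H3, with no overlap.

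The 73 tested mitochondrial ribosomal protein genes had a median log2 FC of 0.16, with 56 above 0. Without L1 the median was -0.12, with 21 of 73 above 0. The mean of their log2 CPM, each gene centred on its mean over all libraries, came to 0.49, -0.01 and -0.31 in L1, L2 and L3, against a mean of -0.05, -0.19 and 0.06 in H1, H2 and H3, so that L1 alone stood well above 0. MRPS10, of the small subunit, had 52.8, 32.8 and 22.0 CPM in L1, L2 and L3, against 24.2, 22.7 and 24.1 CPM in H1, H2 and H3. MRPL45, of the large subunit, had 82.4, 62.9 and 64.6 CPM in L1, L2 and L3, against 55.1, 48.8 and 61.0 CPM in H1, H2 and H3. The groups overlapped in MRPS10 and not in MRPL45. The 22 translation factors and tRNA synthetases of the organelle had a median of -0.15, with 16 below 0. MTFMT, which formylates the initiator tRNA, had a log2 FC of 0.53 (SE 0.34), and MTRF1L, a release factor, had -0.32 (SE 0.25) with all low-FCR birds below all high-FCR birds.

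The regulators of mitochondrial biogenesis had a median log2 FC of 0.04 over 9 tested genes. In this list L3 was not the lowest bird, as the centred mean was 0.04, -0.09 and 0.06 in L1, L2 and L3, against a mean of -0.18, 0.03 and 0.14 in H1, H2 and H3. YY1, a transcription factor with many targets besides mitochondrial genes, had 133, 115 and 142 CPM in L1, L2 and L3, against 97.7, 105 and 107 CPM in H1, H2 and H3, with no overlap and a log2 FC of 0.33 (SE 0.20). ESRRG, a nuclear receptor, had a log2 FC of 0.48 (SE 0.48) with overlap. The 16 genes for matrix and membrane housekeeping had a median of -0.02. Their chaperone genes HSPE1 and HSPA9 had log2 FCs of 0.40 (SE 0.30) and 0.24 (SE 0.23).

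The levels of tissue markers differed between birds. The 16 enterocyte markers summed to 19336, 16019 and 8774 CPM in L1, L2 and L3, against 18542, 7612 and 5252 CPM in H1, H2 and H3. L3 was the lowest low-FCR bird here as in the mitochondrial share, while in the high-FCR group H3 had the lowest enterocyte sum and the highest mitochondrial share, and H1 the highest enterocyte sum and the lowest mitochondrial share. The 10 smooth muscle markers summed to 20870, 5210 and 8258 CPM in L1, L2 and L3, against 13663, 6661 and 8428 CPM in H1, H2 and H3. L1 had the highest sum in both lists. Counting each enterocyte gene equally, the mean of centred log2 CPM was 0.74, 0.74 and -0.50 in L1, L2 and L3, against a mean of 0.96, -0.56 and -1.39 in H1, H2 and H3, which put H1 highest. The 4 tested markers of the distal small intestine summed to 4904, 155 and 539 CPM in L1, L2 and L3, against 344, 778 and 128 CPM in H1, H2 and H3. Of these, FABP6, the ileal bile acid binding protein, had 4587, 13.5 and 329 CPM in L1, L2 and L3, against 193, 653 and 14.1 CPM in H1, H2 and H3. L1 thus stood far apart in this list. The 3 tested erythrocyte markers summed to 110, 102 and 111 CPM in L1, L2 and L3, against 62.5, 78.6 and 63.2 CPM in H1, H2 and H3. In each of the 3 all low-FCR birds were above all high-FCR birds, beside 6.36% of all genes without overlap in either direction. The list held 9 genes, and the others did not pass the filter. The 8 tested T cell markers summed to 635, 1229 and 968 CPM in L1, L2 and L3, against 1084, 1019 and 1852 CPM in H1, H2 and H3. The part of cell makeup and of the position along the intestine in the mitochondrial values was not tested. In such bulk samples, fewer cells of a type and less RNA per cell cannot be told apart.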

How the data were processed

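The members and the gene lists were chosen with earlier results of these data known. Per the submitters' processing notes, the authors used Cutadapt 1.9.1 for trimming, HISAT2 2.0.1 for alignment to GRCg6a and HTSeq 0.6.1 for read counts of Ensembl genes. The annotation release and the strand and overlap settings are not given in the sources used here. The deposited counts are whole numbers, and the deposited FPKM were computed by the authors from counts, exonic size and the total count. Cufflinks 2.2.1 assemblies were not used here.

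Counts were tested in R 4.3.3 with edgeR 4.0.16 (TMM, quasi-likelihood) over all genes whose FPKM averaged 0.5 or more, with Benjamini-Hochberg adjustment and a threshold of 0.05. Alternatives used DESeq2 1.42.0, limma 3.58.1 on log2(FPKM + pseudocount) and voom, other scalings, each bird left out, and H3 regrouped. The fit without L1 and H3 was added after seeing the data. The mix of mRNAs was fitted with the sum of mitochondrial protein-coding counts as library size. The 95% interval of a log2 FC used its SE and the moderated degrees of freedom. All protein-coding and rRNA genes of the mitochondrial genome were named, tRNA-sized genes whose counts averaged 10 or more, POLRMT, TFAM, LRPPRC and the 2 genes of smallest p in each nuclear list. The gene of 135 bases was treated as a tRNA-sized one for this rule. Marker lists of cell types were described by their levels over the genes that passed the filter, with no test of a list. The lists described were chosen after their values were seen, as was FABP6. The tests were run on simulated data with differences far larger than those of the mitochondrial genes. That run does not cover differences of their size. No genome sequence was used, so no sequences are printed.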

Additional observations from a re-analysis of the deposited data

How the results depend on the processing

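No mitochondrial gene and no gene of the nuclear lists passed the test under any alternative run, and the smallest adjusted p of a mitochondrial gene relative to all counts was 0.591. Of 323 log2 FCs recomputed for the 17 mitochondrial genes, 293 kept their direction and 30 reversed. Without each bird in turn, the genes with a reversal ranged from -0.13 to 0.33 for ND1, -0.12 to 0.51 for COX1, -0.0075 to 0.44 for ND5, -0.036 to 0.33 for ND4L, -0.058 to 0.67 for ND6, -0.30 to 0.075 for ATP8, -0.33 to 0.12 for the longer rRNA (ENSGALG00000043598), -0.65 to 1.02 for ENSGALG00000033462 and -0.59 to 0.13 for ENSGALG00000041922. Without TMM, ND1 had a log2 FC of -0.018. With limma on FPKM and pseudocounts of 0.5, 0.1 and 2, ND1 had -0.0405, -0.0405 and -0.0404 and COX1 -0.049 each time, while ENSGALG00000033462 had -0.0052 at 0.5 and -0.0094 at 0.1. With H3 grouped as low-FCR, ATP8 had 0.13, the longer rRNA 0.27 and ENSGALG00000041922 0.37. Against H1 alone, ATP8 had 0.34 and the longer rRNA 0.39. Without L1 and H3, ATP8 had 0.15, the longer rRNA 0.12 and ENSGALG00000033462 -0.52. The cause was not tested. An unadjusted p under 0.05 occurred in 2 fits, both without L3: ND3 (0.0485) and the shorter rRNA within the mitochondrial transcripts (0.0102).

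The median log2 FC of the protein-coding genes ranged from 0.14 without L1 to 0.54 without L3 and was 0.20 without L1 and H3 (0.34 with all birds). The log2 ratio of the mean shares ranged from -0.04 to 0.26 over the birds left out. On log2(FPKM + 0.1) the median of all genes shifted to -0.10, so ND1 and COX1 lay above that median while below 0. Deviations of birds with the same number correlated by 0.19, 0.17 and 0.01, and those of the other pairs by -0.26 to 0.11. These values do not settle whether the numbers pair the birds. With the replicate block, 0 mitochondrial genes passed, the median log2 FC of the protein-coding genes was 0.30, and 2 of all genes passed, against 0 without it. With 3 birds per group the width of the intervals limits what can be detected. Why 20 tRNA-sized genes had 0 counts was not tested.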
